A study of Mus musculus with 6 samples.

Results

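The 10 genes described here encode elastin, its microfibril and fibulin partners and the enzymes that cross-link the fibre: Eln, Fbn1, Fbn2, Fbln1, Fbln2, Fbln5, Efemp2, Lox, Loxl1 and Loxl2. They were found by symbol among the 16982 genes of the deposited count table, and all 10 passed the filter on low counts that left 13386 genes for testing. The choice of genes rests partly on the data, because the low Eln level of 1 Rnf20 knockout library belongs to the rule that set them apart. Eln is therefore given by its values with no test.

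RNA-seq was performed on 3 WT and 3 Rnf20 knockout samples of reprogrammable cells of C57BL/6 strain background, harvested at day 3 of reprogramming. The study compared the genotypes to learn what RNF20, an E3 ligase that monoubiquitinates histone H2B, does early in reprogramming. The knockout cells were mouse embryonic fibroblasts (MEF) from embryos of Rnf20 Flox/Flox; Tamoxifen-cre mice, in which a ubiquitously expressed Cre recombinase is activated by tamoxifen. The paper calls the WT cells Rnf20+/+ and does not state whether they carried the floxed alleles or the Cre. MEF of both genotypes were infected with pMXs retroviruses for OCT4, SOX2, KLF4 and C-MYC. Knockout was induced with 4-OH tamoxifen. The labels list all 6 samples as untreated, and the methods do not state whether the WT cells received the drug. The protocol places infected cells on a layer of mitomycin C-treated MEF, and whether RNA of that layer was harvested is not stated. Nothing in the labels says whether the 3 samples of a genotype came from separate embryos or cultures. The p-values thus measure only the spread between these samples, which in WT may be wholly technical and in knockout partly so.

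Elastic fibres consist of a core of cross-linked elastin laid down on a scaffold of fibrillin microfibrils. Fibulins bind tropoelastin, the soluble precursor, and help to place it on the microfibril, and lysyl oxidases oxidize lysine residues so that elastin and collagen chains become covalently linked. Embryonic fibroblasts make many of these proteins, as do vascular smooth muscle cells.

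The libraries held between 20545442 and 21746898 counts, so that 3 counts, taken as the floor, equal 0.142 to 0.143 CPM (counts scaled by the TMM-normalized library total). Rnf20 lay between 106 and 107 CPM in WT and between 16.4 and 18.7 CPM in knockout (log2 fold change -2.57, SE 0.0812, edgeR adjusted p = 0.000163). These counts cover the whole gene and thus also exons outside the deleted part. Knockout replicate 3 stood apart. The chi-square statistic per gene between libraries was 6.04 to 8.92 among the WT libraries and 8.57 between knockout replicates 1 and 2, but 92.4 and 101 between each of these and knockout replicate 3. No counts were found for the Y-linked gene Ddx3y in knockout replicates 1 and 3, while each of the other 4 libraries held between 1990 and 2686. The knockout samples thus differed in Y-linked expression, so their spread was not only technical. Y-linked expression was also not balanced between the genotypes, and its part in the levels of the 10 genes was not tested. Because knockout replicate 3 stood apart, the results of the 10 genes are given with and without it. All 12 fibroblast markers examined passed the filter, among them Col1a1, Col1a2, Vim and Prrx1. In bulk RNA, fewer cells of a type and less RNA per cell cannot be told apart.

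Eln, which encodes tropoelastin, was at 495, 653 and 585 CPM in the WT libraries and at 171, 111 and 7.48 CPM in the knockout libraries, in the order of their replicate numbers, as throughout. No knockout library reached the lowest WT library, and knockout replicate 3 lay far below the other knockout libraries. The deposited counts behind these values were 10420, 13758 and 12320 in WT and 3574, 2332 and 157 in knockout, well above the floor in each library. Relative to the WT mean of 578 CPM (SD 79.1, n = 3), the knockout libraries held 29.5%, 19.2% and 1.29%. The fitted log2 fold change was -2.59 (SE 0.902) over all libraries and -2.04 (SE 0.169) without knockout replicate 3. Knockout replicates 1 and 2 thus lay below the WT libraries by themselves. The smaller error follows from leaving out the library that lay apart, and nothing is read from it. The knockout libraries of Eln spanned 4.49 on the log2 scale, compared with 0.40 for the WT libraries and a median of 0.37 for knockout libraries over all genes tested. Knockout replicate 3 differed from the mean log2 level of the other 2 knockout libraries by -4.18. This difference belongs to what set the genes apart and is given as a description. Eln (ENSMUSG00000029675) lies on the minus strand at chr5:134702593-134747323 of GRCm38, and 267 of its exonic bases are shared with the antisense gene Gm30003.

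**Figure D1:**
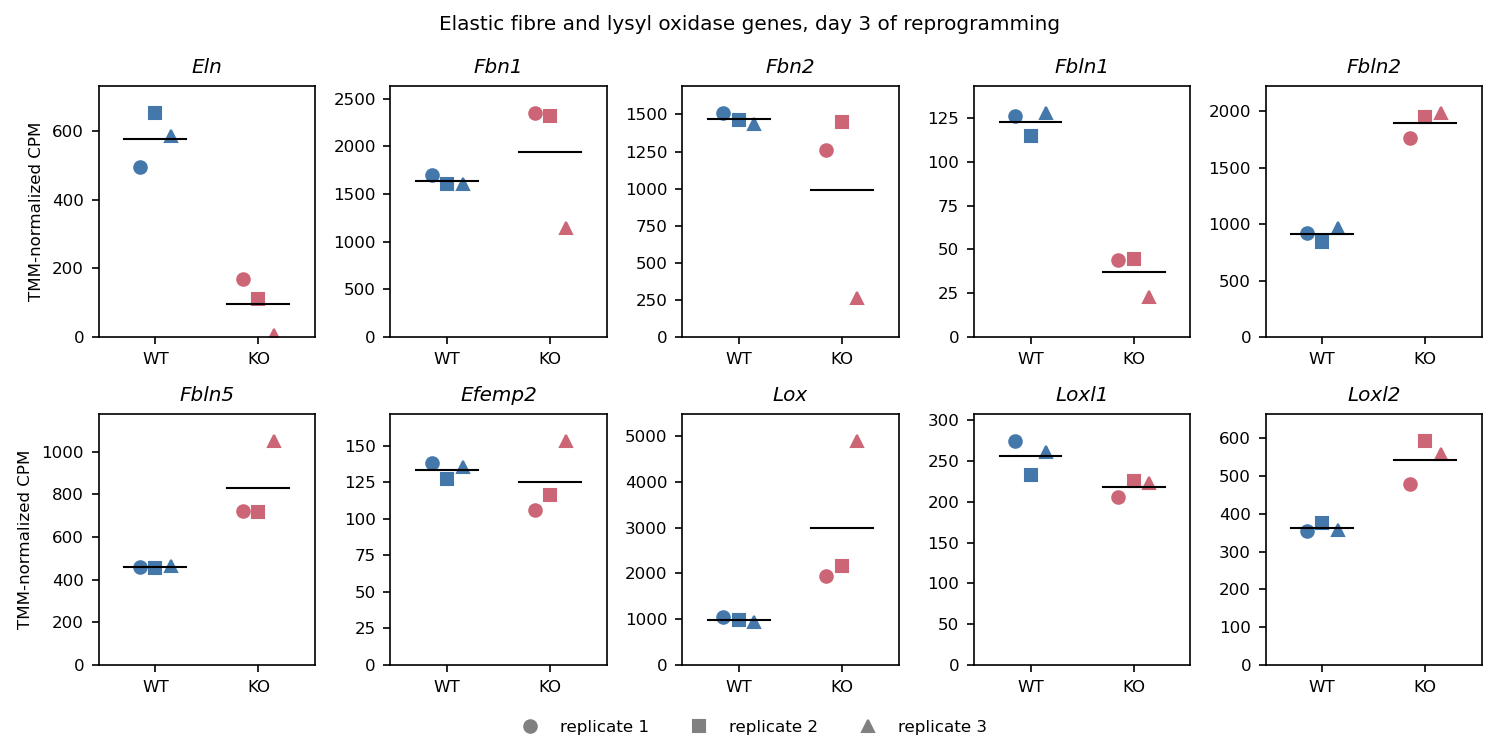
TMM-normalized CPM of the 10 genes in each library, with WT in blue and Rnf20 knockout (KO) in red, marker shape giving the replicate number and the line giving the mean of 3 libraries; every vertical axis is linear and starts at 0. In KO replicate 3 Eln lies at 7.48 CPM, Fbn2 at 261 CPM and Lox at 4899 CPM.

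Among the fibrillins, which polymerize into the microfibril, neither gene passed the test over all 6 libraries, and both were lower in knockout replicate 3 than in any other library by counts. Fbn1, the main fibrillin of postnatal tissue, was at 1697, 1608 and 1609 CPM in WT and at 2351, 2319 and 1149 CPM in knockout. Knockout replicates 1 and 2 lay above the WT libraries and knockout replicate 3 lay below them, so that the groups overlapped. The log2 fold change of Fbn1 was 0.24 (SE 0.261, 95% interval -0.38 to 0.86, edgeR adjusted p = 0.494) and, without knockout replicate 3, 0.51 (SE 0.0571, edgeR adjusted p = 6.24e-05). Fbn1 thus passed the test when that library was left out, and under no other alternative run. Fbn2, which is made mostly during development, was at 1510, 1463 and 1437 CPM in WT and at 1262, 1450 and 261 CPM in knockout. Knockout replicate 2 fell within the WT range of Fbn2, and knockout replicate 3 held 17.7% of the WT mean. The log2 fold change of Fbn2 was -0.57 (SE 0.545, 95% interval -1.87 to 0.73, edgeR adjusted p = 0.445), and without knockout replicate 3 it was -0.11 (SE 0.0682, edgeR adjusted p = 0.192). Of the CPM of both fibrillins together, Fbn2 made up 47.1%, 47.6% and 47.2% in WT and 34.9%, 38.5% and 18.5% in knockout. In FPKM this share was 44.5%, 45.03% and 43.9% in WT and 32.6%, 35.7% and 7.63% in knockout. On both scales the share of Fbn2 was lower in each knockout library than in any WT library, but its size in knockout replicate 3 depended on the scale. Fbn2 (ENSMUSG00000024598) lies on the minus strand at chr18:58008623-58210487 and shares 129 exonic bases with the lincRNA Gm26507 on the opposite strand.

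The 2 deposited measures of Fbn1 went apart in knockout replicate 3. In FPKM, which the authors computed per transcript length with Cufflinks, Fbn1 was at 171, 162 and 168 in WT and at 236, 237 and 293 in knockout, so that knockout replicate 3 was the highest library instead of the lowest. Relative to the WT mean, Fbn1 in this library was at -0.51 on the log2 scale from counts and at 0.81 from FPKM, a difference of 1.33. Over 12523 genes with a mean of at least 1 CPM the median of this difference was -0.03, and 16 other genes had one as large in either direction. From log2(FPKM + 0.1), the mean difference of Fbn1 between genotypes was 0.61, compared with 0.24 from counts. Annotated Fbn1 transcripts have 1926, 9847 and 11971 bases, and the gene length given with the counts is that of the longest. Of the exonic bases of Fbn1 (chr2:125300594-125507993, minus strand), 2442 are shared with Gm9913 on the opposite strand, which had 390, 301 and 254 counts in WT and 507, 516 and 170 in knockout. The setting for strand in the counting is not given in the sources used here, so reads of these overlapping genes cannot be told apart. What part the overlap or the transcripts had in the difference was not tested. Among the other 9 genes the largest such difference in knockout replicate 3 was -0.33, for Fbln5, followed by 0.21 for Fbln2.

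**Figure D2:**
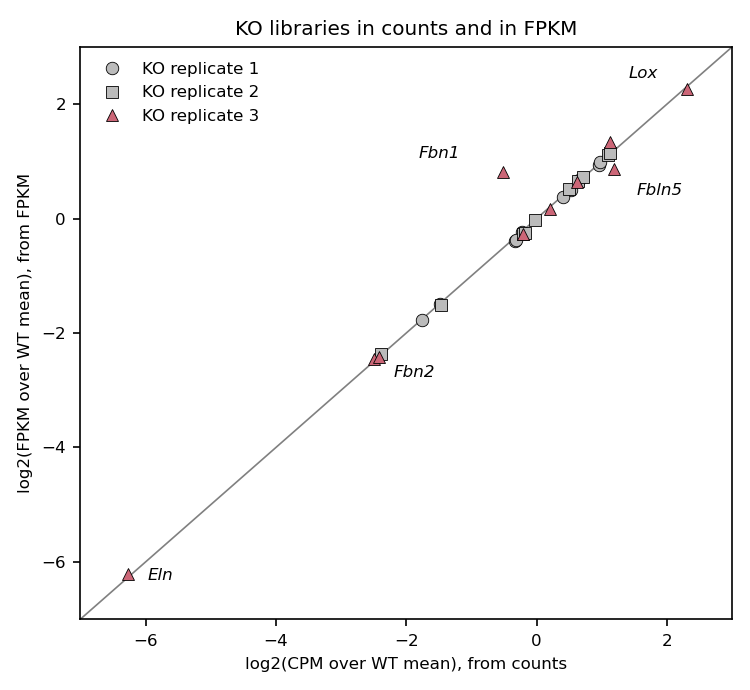
Level of the 10 genes in each Rnf20 knockout (KO) library relative to the WT mean on a log2 scale, from counts (CPM, horizontal axis) and from the authors' FPKM (vertical axis), with marker shape giving the replicate and the line marking equal values. Fbn1 in KO replicate 3 lies off the line, at -0.51 from counts and 0.81 from FPKM, while the other points lie within 0.33 of it.

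The fibulins moved in different directions. Fbln1, a fibulin found with elastin and in basement membranes, was at 126, 114 and 128 CPM in WT and at 43.9, 44.3 and 23.1 CPM in knockout. No knockout library reached the WT range, and knockout replicate 3 was again the lowest. Fbln1 fell by 1.73 on the log2 scale (SE 0.244, edgeR adjusted p = 0.00553), a mean 3.31-fold lower in knockout, and by 1.48 without knockout replicate 3 (SE 0.0687, edgeR adjusted p = 5.65e-07). Fbln2, which is bound by fibrillin and by basement membrane proteins, was at 924, 840 and 970 CPM in WT and at 1766, 1952 and 1987 CPM in knockout. The 3 knockout libraries were close to each other and all above the WT libraries. Fbln2 rose by a log2 fold change of 1.06 (SE 0.0939, edgeR adjusted p = 0.00228), or 2.09-fold in the means, and by 1.03 without knockout replicate 3 (SE 0.0724, edgeR adjusted p = 3.56e-06). Fbln5, which tethers tropoelastin to microfibrils and cells, was at 461, 454 and 466 CPM in WT and at 723, 717 and 1051 CPM in knockout. Its knockout libraries all exceeded the WT libraries, with knockout replicate 3 the highest. Fbln5 was upregulated with a log2 fold change of 0.85 (SE 0.157, edgeR adjusted p = 0.0104), and of 0.65 without knockout replicate 3 (SE 0.0489, edgeR adjusted p = 5.44e-06). The call of Fbln5 was lost without WT replicate 2 (log2 fold change 0.84, edgeR adjusted p = 0.052) and without WT replicate 3 (0.86, edgeR adjusted p = 0.053). Efemp2, also called fibulin-4, which bridges lysyl oxidase and tropoelastin, was at 138, 127 and 135 CPM in WT and at 106, 116 and 154 CPM in knockout. Knockout replicates 1 and 2 lay below the WT libraries of Efemp2 and knockout replicate 3 lay above them. Its log2 fold change was -0.09 (SE 0.140, 95% interval -0.42 to 0.24, edgeR adjusted p = 0.635) and, without knockout replicate 3, -0.26 (SE 0.0624, edgeR adjusted p = 0.00607). Without knockout replicate 1 the value of Efemp2 was 0.02 with the opposite sign. Efemp2 (chr19:5473954-5482517) shares 173 exonic bases with Mus81 on the other strand, whereas no annotated exon overlaps those of Fbln1 (chr15:85205949-85286535), Fbln2 (chr6:91212455-91272540) and Fbln5 (chr12:101746565-101819055).

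RefSeq promoter windows of GRCm38.p6 were at hand for 5 of the 10 genes, Fbn1, Fbln1, Fbln2, Fbln5 and Efemp2. The 250 bases before the start of Fbln1, which fell, and of Fbln5, which rose, are shown because they are the fibulins of opposite direction whose windows lie outside the annotated exons of the gene. The Fbln1 window is chr15:85205699-85205948 on the plus strand and that of Fbln5 is chr12:101819120-101819369 on the minus strand, each written 5′ to 3′ on the strand of the gene. Capitals mark matches, on either strand, of the motifs searched, which were the TATA box TATAAA, the box named CCAAT, the GC box GGGCGG, the Krüppel-like factor motif CACCC, the E-box CACGTG, the AP-1 motif TGANTCA and the octamer ATGCAAAT.
Fbln1: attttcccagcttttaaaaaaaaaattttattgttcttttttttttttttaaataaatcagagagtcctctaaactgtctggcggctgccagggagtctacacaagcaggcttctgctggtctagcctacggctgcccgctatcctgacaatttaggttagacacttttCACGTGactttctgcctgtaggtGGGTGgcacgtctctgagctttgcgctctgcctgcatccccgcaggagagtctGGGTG
Fbln5: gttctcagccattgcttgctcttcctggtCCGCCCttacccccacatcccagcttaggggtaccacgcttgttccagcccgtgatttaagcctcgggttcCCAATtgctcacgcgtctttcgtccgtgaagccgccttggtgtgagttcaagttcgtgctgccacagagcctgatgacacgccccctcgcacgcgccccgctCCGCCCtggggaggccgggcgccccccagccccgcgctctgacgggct
The Fbln1 window held CACCC at 2 places and CACGTG at 1, at position -81 from the start, and its GC content was 46.4%. The Fbln5 window held GGGCGG at 2 places and CCAAT at 1, at position -150, with a GC content of 65.2%. These windows thus had no searched motif in common. The window of Fbln2, which also rose but is not shown, held CACCC at 2 places and GGGCGG at 1. No relation of motifs to direction was tested. Fbln1 and Fbln5 each had 2 windows at hand, of which the one nearest the annotated start was taken. Of 32851 windows of the same length, 52.0% held CACCC, 33.9% CCAAT, 32.7% GGGCGG, 12.4% TATAAA, 6.75% TGANTCA, 6.02% CACGTG and 1.60% ATGCAAAT. A match describes the letters and not a binding site, and the absence of a match says only that the letters are not in the window.

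Of the lysyl oxidases, Lox and Loxl2 rose and Loxl1 did not pass the test over all 6 libraries. Lox, the first described enzyme of the family, which acts on collagen and elastin, was at 1036, 983 and 937 CPM in WT and at 1934, 2154 and 4899 CPM in knockout. The knockout libraries all lay above the WT libraries of Lox, and knockout replicate 3 stood well above the other 2. Lox rose by a log2 fold change of 1.60 (SE 0.353, edgeR adjusted p = 0.0173), and by 1.05 without knockout replicate 3 (SE 0.0672, edgeR adjusted p = 2.09e-06). Knockout replicates 1, 2 and 3 held 1.96, 2.19 and 4.97 times the WT mean. In the fit over all genes the adjusted p of Lox exceeded 0.05 when any WT library was left out, with edgeR adjusted p between 0.0632 (without WT replicate 1) and 0.0767 (without WT replicate 3) and log2 fold changes between 1.57 and 1.64. Lox alone took 0.0955% to 0.106% of the counts of a WT library and 0.191%, 0.209% and 0.479% of those of knockout replicates 1 to 3. Loxl1, which is tied to elastin maintenance in adult tissue, was at 275, 233 and 262 CPM in WT and at 206, 226 and 223 CPM in knockout. The knockout libraries of Loxl1 all lay below the WT libraries, by a small margin. Its log2 fold change was -0.23 (SE 0.0853, edgeR adjusted p = 0.0754), -0.25 without knockout replicate 3 (SE 0.0741, edgeR adjusted p = 0.0191), and -0.30 with library sizes taken without TMM factors (edgeR adjusted p = 0.0368). Loxl2, a lysyl oxidase-like enzyme that cross-links collagen IV, was at 355, 375 and 357 CPM in WT and at 478, 594 and 559 CPM in knockout. All knockout libraries of Loxl2 exceeded the WT libraries, and knockout replicate 3 lay between the other 2. Loxl2 rose by a log2 fold change of 0.58 (SE 0.0956, edgeR adjusted p = 0.00769) and by 0.57 without knockout replicate 3 (SE 0.0808, edgeR adjusted p = 0.000304). Loxl2 (chr14:69609068-69695834, plus strand) shares 301 exonic bases with the antisense gene Gm27177 and 7 with Mir6950, Lox (chr18:52516067-52529867, minus strand) shares 30 with the antisense gene AC161119.1, and Loxl1 (chr9:58287738-58313186, minus strand) shares none.

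Of the 9 genes other than Eln, 4 rose (Fbln2, Fbln5, Lox and Loxl2), 1 fell (Fbln1) and 4 did not pass the test. Over all genes tested, edgeR's quasi-likelihood test called 33.0% at an adjusted p under 0.05, 16.4% higher and 16.6% lower in knockout. When knockout replicate 3 was left out, 5 of the 9 were higher, 3 were lower and Fbn2 did not pass, and 48.1% of all genes were called, 23.9% higher and 24.2% lower. At the thresholds of the study's methods (adjusted p under 0.01, more than 2-fold and FPKM over 1), Fbln2 and Fbln1 were called, against 3.59% of all genes, 1.50% higher and 2.08% lower. Since the genes were drawn up with results of these data known, nothing is read from these counts. The median log2 fold change of the 10 genes, Eln included, was 0.08, and 0.20 without knockout replicate 3, compared with 0.00 and -0.01 over all genes tested. The libraries of the 2 genotypes did not overlap for 7 of the 10 genes, 4 higher and 3 lower in knockout. Eln, whose level helped to choose the genes, is among the 3, so nothing is read from these values either. Of all genes tested, 54.8% had groups that did not overlap, 26.6% higher and 28.2% lower. The position of knockout replicate 3 relative to the other 2 knockout libraries also differed between the genes. From counts, it was lower by more than 0.9 on the log2 scale for Eln, Fbn2, Fbn1 and Fbln1, although in FPKM it was the highest library of Fbn1. It was higher by 1.26 for Lox, by 0.55 for Fbln5 and by 0.47 for Efemp2, and within 0.1 for Fbln2, Loxl1 and Loxl2. The median size of this difference over all genes tested was 0.29.

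**Figure D3:**
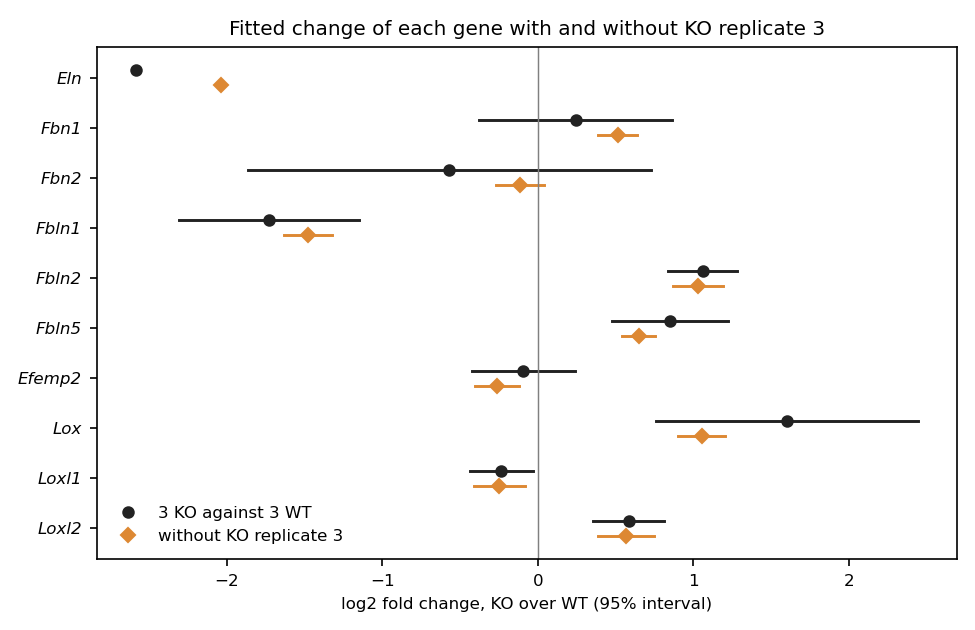
Log2 fold change of knockout (KO) over WT from edgeR for the 10 genes, over 3 KO and 3 WT libraries (black circles) and without KO replicate 3 (orange diamonds), with lines giving 95% intervals, which are left out for Eln because its level chose the genes. Fbln1 lies at -1.73 and -1.48 while Fbln2, Fbln5, Lox and Loxl2 lie above 0 in both fits, and the interval of Fbn2 narrows from between -1.87 and 0.73 to between -0.27 and 0.04.

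Levels of different genes were set side by side per transcript length, in the authors' FPKM. In WT, Lox was the highest of the 10 genes at 265 FPKM (SD 14.1, n = 3), followed by Fbln2 at 203 (SD 14.4). Fbn1 at 167, Fbln5 at 163 and Eln at 158 FPKM came next, and their libraries overlapped, as did those of Eln and of Fbn2 at 134. Efemp2 at 106 and Loxl1 at 103 FPKM also overlapped, whereas Loxl2 at 68.4 (SD 1.34) and Fbln1 at 54.4 (SD 3.81) did not. In knockout, Lox was again first at 792 FPKM (SD 414) and Fbln2 second at 447 (SD 61.8). Fbln5 at 271 and Fbn1 at 256 FPKM overlapped, and Loxl2 at 103, Efemp2 at 96.5, Fbn2 at 90.0 and Loxl1 at 83.4 FPKM followed. Eln at 26.2 FPKM (SD 22.2) and Fbln1 at 16.2 (SD 5.24) were last and overlapped. The ratio of Lox to Eln in FPKM was 2.08, 1.48 and 1.56 in the WT libraries, compared with 11.4, 19.1 and 595 in the knockout libraries. This ratio rests on the levels of Eln that helped to choose the genes, and nothing is read from it. The order depended on the scale. In CPM per kilobase of the gene length that came with the counts, Fbln5 in WT was at 74.7 (SD 0.964), below Eln at 149.9, Fbn1 at 137 and Fbn2 at 128. In knockout on that scale, Fbn1 at 162 (SD 57.2) stood above Fbln5 at 135 (SD 31.0), while Lox and Fbln2 were first and second and Fbln1 last in both genotypes on both scales. The 10 genes together took 0.698% to 0.718% of the counts in WT and 0.895%, 0.938% and 1.01% in knockout.

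Of 25 genes listed for microfibrils and fibre assembly, 24 were in the count table and 23 passed the filter, Mmrn1 being outside the table and Vtn below the filter. Of these 23 genes, 5 rose, 8 fell and 10 did not pass the test, with a median log2 fold change of -0.30 beside 0.00 over all genes tested, of which 16.4% were called higher and 16.6% lower. Mfap2, which encodes the microfibril glycoprotein MAGP-1, was at 106, 130 and 127 CPM in WT and at 27.8, 35.1 and 20.9 CPM in knockout, and fell by 2.11 on the log2 scale (SE 0.195, edgeR adjusted p = 0.00251). Mfap4, a glycoprotein that binds elastin and fibrillin, was at 123, 93.6 and 115 CPM in WT and at 25.2, 32.4 and 3.05 CPM in knockout, and fell by 2.45 (SE 0.698, edgeR adjusted p = 0.0371). In both genes the knockout libraries lay below the WT libraries, and knockout replicate 3 was the lowest. Adamtsl3 fell by 1.35 (SE 0.320, edgeR adjusted p = 0.0217), from 42.0 to 49.1 CPM in WT to 9.24 to 24.6 CPM in knockout. Emilin3, an elastin microfibril interface protein, had 28, 33 and 32 counts in WT and 4, 7 and 1 in knockout, where replicate 3 lay under the floor. It passed the test (edgeR adjusted p = 0.00969), and its fitted fold change is not given. Adamtsl2, which binds fibrillins, was near the floor in WT, at 0.523, 0.902 and 0.475 CPM. In knockout it lay under the floor, at 0.0955, 0 and 0 CPM. It also passed the test (edgeR adjusted p = 0.0159), and at such counts the fitted fold changes of both genes depend on the prior count. Efemp1, or fibulin-3, was the most abundant gene that rose, from 153, 174 and 167 CPM in WT to 364, 416 and 370 CPM in knockout (log2 fold change 1.22, SE 0.0874, edgeR adjusted p = 0.00178). Ltbp2, a latent TGF-beta binding protein family member that associates with microfibrils, was at 64.8, 53.1 and 59.7 CPM in WT and at 112.6, 91.3 and 391 CPM in knockout. It rose by a log2 fold change of 1.75 (SE 0.545, edgeR adjusted p = 0.0484), and by 0.79 without knockout replicate 3, which held the highest level by far. Of its exonic bases, 764 are shared with the antisense gene D030025P21Rik. Hmcn2 (log2 fold change 1.61, edgeR adjusted p = 0.00779), Mmrn2 (1.45, edgeR adjusted p = 0.0184) and Adamtsl5 (0.54, edgeR adjusted p = 0.0492) also rose, with Hmcn2 and Mmrn2 below 5 CPM in each library. In the fit without knockout replicate 3, 6 genes of the list rose and 11 fell, where 23.9% of all genes were called higher and 24.2% lower, and the median was -0.21. Without WT replicate 1, 2 or 3 in turn, 2 genes rose and 5, 4 and 4 genes fell. Over all genes these runs called 953, 782 and 694 higher and 994, 833 and 702 lower.

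Of 11 genes for other lysyl oxidases, propeptide processing and copper supply, 10 were in the count table and 9 passed the filter, with Pcolce outside the table and Tll2 below the filter. Of the 9 genes, 4 rose, none fell and 5 did not pass edgeR's quasi-likelihood test, which called 33.0% of all genes (16.4% higher), and the median log2 fold change was 0.28. At an unadjusted p under 0.05, 1 gene (Loxl3) was lower, and DESeq2 called 0 genes lower. Loxl4, another member of the lysyl oxidase family, was at 32.0, 32.1 and 33.9 CPM in WT and at 81.0, 82.5 and 71.7 CPM in knockout. Its libraries were tight within each genotype, and it rose by a log2 fold change of 1.26 (SE 0.0820, edgeR adjusted p = 0.00161). Tll1, a protease related to BMP1 that cleaves procollagens, was at 22.2, 20.5 and 22.5 CPM in WT and at 34.5, 38.2 and 70.4 CPM in knockout, and rose by 1.13 (SE 0.269, edgeR adjusted p = 0.0218). Its value was 0.74 without knockout replicate 3, the highest library. The copper chaperones Ccs (log2 fold change 0.50, SE 0.0807, edgeR adjusted p = 0.00766) and Atox1 (0.41, SE 0.118, edgeR adjusted p = 0.0374) rose by less. Lysyl oxidases need copper, which ATP7A delivers to the secretory pathway. Atp7a itself was at 83.2, 83.9 and 75.0 CPM in WT and at 107.5, 103 and 83.5 CPM in knockout (edgeR adjusted p = 0.0938). Bmp1, which releases the LOX propeptide, was at 253 to 272 CPM in WT and at 228 to 261 CPM in knockout (log2 fold change -0.13, SE 0.0802, edgeR adjusted p = 0.261). Without knockout replicate 3, 5 genes of the list rose and 2 fell, where 48.1% of all genes were called. With any WT library left out, 2 genes of the list rose. Over all genes, 953, 782 and 694 were called higher without WT replicate 1, 2 and 3 in turn.

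Of 11 genes for the elastin receptor complex and elastolytic enzymes, 10 were in the count table and passed the filter, Elane being outside the table. Of the 10 genes, 4 rose, none fell and 6 did not pass edgeR's quasi-likelihood test, which called 33.0% of all genes (16.4% higher), and the median log2 fold change was 0.31. At an unadjusted p under 0.05, 1 gene (Ctsk) was lower, and DESeq2 called 1 gene lower. Mmp12, or macrophage elastase, was at 0.618, 0.285 and 0.522 CPM in WT and at 1.81, 3.32 and 6.95 CPM in knockout, and rose by a log2 fold change of 3.07 (SE 0.589, edgeR adjusted p = 0.0117). The summed level of 7 macrophage markers was 46.0, 91.1 and 74.7 CPM in WT and 78.3, 49.9 and 248 CPM in knockout, and 6 of the 7 were highest in knockout replicate 3. None of the 7 was at 0 in every library, edgeR's quasi-likelihood test called none (1 at an unadjusted p under 0.05), and their part in the level of Mmp12 was not tested. The log2 fold change of Mmp12 was 2.42 without knockout replicate 3. Ctsl, a lysosomal cysteine protease, was at 372, 305 and 342 CPM in WT and at 477, 505 and 864 CPM in knockout (log2 fold change 0.86, SE 0.234, edgeR adjusted p = 0.0328). For Ctsl the value without knockout replicate 3, the highest library, was 0.53. Ctsl shares 1742 exonic bases with the antisense gene Gm47123 and 395 with the pseudogene Gm49230 on its own strand, so its level is uncertain. Of the elastin receptor subunits, Ctsa (log2 fold change 0.46, SE 0.137, edgeR adjusted p = 0.0419) and Neu1 (0.36, SE 0.103, edgeR adjusted p = 0.0386) rose. Ctsa shares 495 exonic bases with Pltp and 324 with Neurl2, both on the other strand, so its level is also uncertain. Glb1 was at 48.0 to 53.3 CPM in WT and at 54.5 to 57.0 CPM in knockout (edgeR adjusted p = 0.164). Mmp2, a gelatinase that also degrades elastin, was at 504 to 568 CPM in WT and at 606 to 723 CPM in knockout (edgeR adjusted p = 0.0695). Without knockout replicate 3, 5 genes of the list rose and 1 fell, where 48.1% of all genes were called. With WT replicate 1, 2 or 3 left out in turn, edgeR's quasi-likelihood test called 1, 0 and 0 genes higher (5, 3 and 4 at an unadjusted p under 0.05). Without knockout replicate 2 it called 2 genes of the list higher. Over all genes, 953, 782 and 694 were called higher with these WT libraries left out, and 1680 without knockout replicate 2. Of the 18 genes of the 3 lists chosen by size of change, 6 (Hmcn2, Efemp1, Emilin3, Mfap2, Loxl4 and Ccs) passed the test whichever library was left out.

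**Figure D4:**
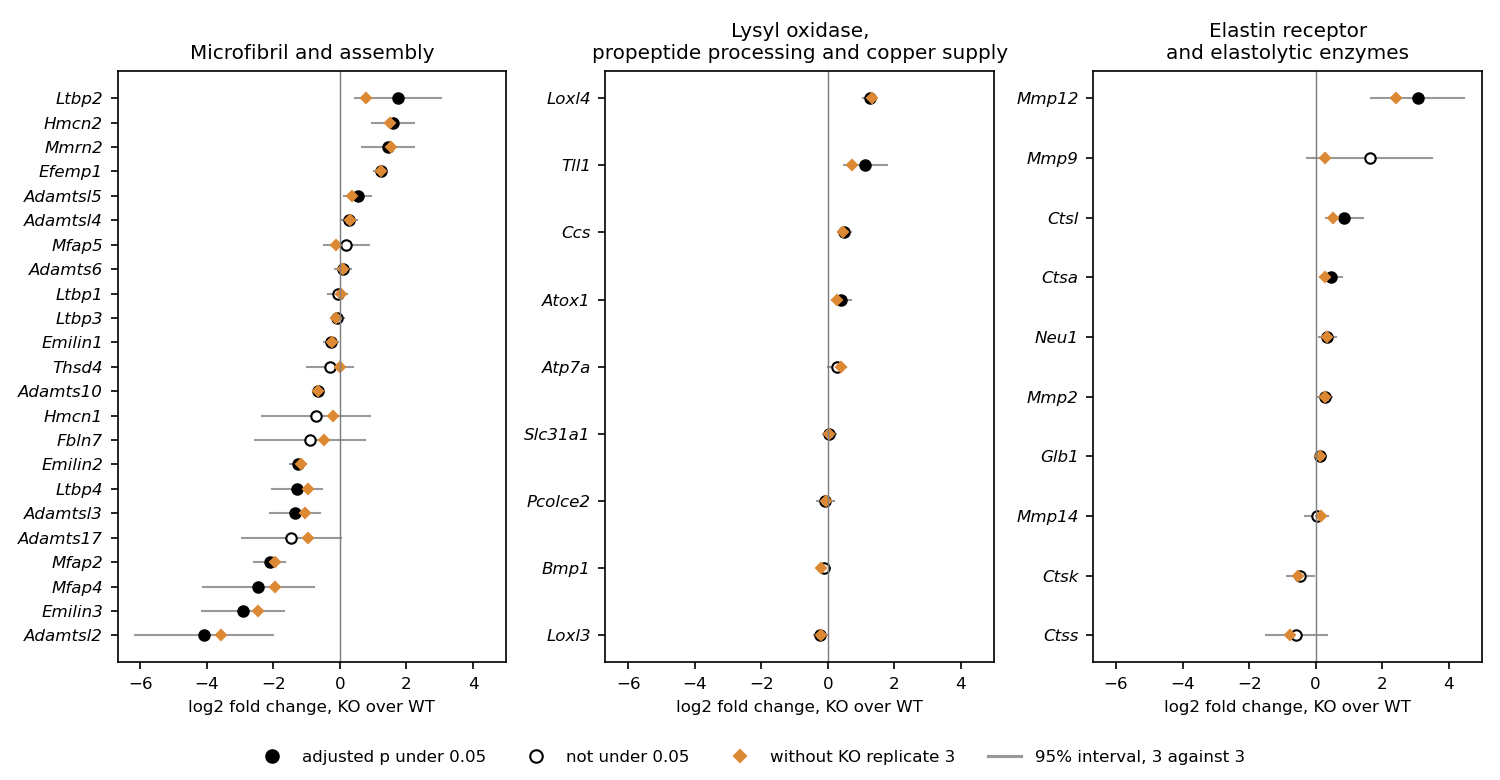
Log2 fold change of knockout (KO) over WT for the genes of 3 lists that passed the filter, with filled circles for edgeR adjusted p under 0.05, open circles for the others, grey lines for 95% intervals over 3 KO and 3 WT libraries, and orange diamonds for the value without KO replicate 3. In the microfibril list 5 genes rose and 8 fell, and in each of the other lists 4 rose.

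The genes whose log2 CPM over the 6 libraries was most like that of Eln were Nup210, Gm11627, Prdm15, Lrrn3 and Bcl11a, with Pearson's r between 0.9989 and 0.9996. The 6 libraries share 2 genotypes and the position of knockout replicate 3, and 160 genes had r of at least 0.99. Lrrn3, for instance, was at 24.5, 27.0 and 27.9 CPM in WT and at 15.7, 12.9 and 3.57 CPM in knockout. Knockout replicate 3 was the lowest library of both genes, whereas the highest was WT replicate 3 for Lrrn3 and WT replicate 2 for Eln. Among the 10 genes, r with Eln was 0.93 for Fbln1, 0.92 for Fbn2, 0.52 for Loxl1, 0.41 for Fbn1, -0.35 for Efemp2, -0.80 for Loxl2, -0.81 for Fbln2, -0.96 for Fbln5 and -0.99 for Lox. These values rest on the levels of Eln that helped to choose the genes, and nothing is read from them.

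Markers of other cell types and of cell division were examined beside the 10 genes, and their part in the levels of these genes was not tested. The counts of markers that rose or fell stand beside 16.4% of all genes tested called higher and 16.6% called lower. The summed level of 8 smooth muscle markers was 835, 753 and 857 CPM in WT and 1249, 1449 and 1858 CPM in knockout. Most of this was Acta2, which rose from between 451 and 516 CPM in WT to between 951 and 1403 CPM in knockout. Of the 7 markers that passed the filter, 2 rose (Acta2 and Lmod1) and 1 fell (Smtn). The 8 markers of dividing cells all fell, from a sum of 1173 to 1259 CPM in WT to 482, 410 and 142 CPM in knockout, with knockout replicate 3 the lowest. The sum of the 12 fibroblast markers was 29690, 27440 and 29790 CPM in WT and 27050, 33460 and 18180 CPM in knockout, and 3 of them (Pdgfra, Thy1 and Fap) fell. Endothelial markers summed to 48.7 to 59.0 CPM in WT and 32.3 to 67.3 CPM in knockout, mostly from Tek, and Pecam1, Cdh5, Tie1, Emcn and Cldn5 were at 0 in at least 1 library each. Cartilage markers summed to 85.4 to 101 CPM in WT and 45.7 to 147 CPM in knockout, with knockout replicate 3 the lowest. Epithelial markers summed to 46.9 to 51.5 CPM in WT, mostly from Krt8, and to 42.0, 29.4 and 5.34 CPM in knockout. Of the 6 that passed the filter, 5 had a fitted log2 fold change below 0, and that of Krt5 was above it. For these markers edgeR's quasi-likelihood test called none (2 lower at an unadjusted p under 0.05).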

How the data were processed

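RNA-seq of 3 WT and 3 Rnf20 knockout samples was analysed, grouped by the genotype in the labels. The authors prepared poly(A)-selected libraries with a strand-specific kit, used HISAT2 2.1.0 to align read pairs to GRCm38/mm10, and deposited whole-number counts per gene without normalization. The counting program and its strand setting are not given in the sources used here. For 12633 genes the authors also deposited FPKM from Cufflinks 2.1.1, as well as fold changes and p-values of their own comparison, which were not used. Counts repeated in that file differed from the count table at 0 values.

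Counts were analysed in R 4.3.3 with edgeR 4.0.16: TMM factors, filterByExpr at its defaults, the quasi-likelihood test without covariates, and Benjamini-Hochberg adjustment over all 13386 genes tested. The test was two-sided, and a gene rose or fell at an adjusted p under 0.05. SE is the absolute log2 fold change over the square root of F. Log2 CPM used a prior count of 2. The fit was checked on simulated counts. Alternatives were RLE factors, library size only, other filters, DESeq2 1.42.0, edgeR's exact test, the replicate number as a block, FPKM, other thresholds, and each library left out. Floors cover counting error only. Coordinates and exons are from GENCODE M21. Pathway genes were named by size of change, up to 5 per list and direction, among genes past the test whose libraries did not overlap. The members, lists and tests were chosen with earlier results of these data known. Ddx3y, Atp7a, Bmp1, Glb1, Mmp2, Loxl3, Ctsk and the markers were named after their values were seen.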

Additional observations from a re-analysis of the deposited data

How the results depend on the processing

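For the 9 genes with a test, 62 of 63 values under other processing kept their direction and side of the threshold, the exception being Loxl1 at -0.295 with library size only, and 45 of 54 did with a library left out. The values without a test (Eln, and FPKM for all 10 genes) kept their direction, 17 under other processing and 6 with a library left out. Leaving out each library in turn gave ranges of -3.29 to -2.04 for Eln, 0.0863 to 0.513 for Fbn1 and -0.262 to 0.0193 for Efemp2 (reversed without knockout replicate 1). They were 0.648 to 0.952 for Fbln5, 1.05 to 1.85 for Lox and -0.301 to -0.184 for Loxl1. Rnf40, the partner of Rnf20, ranged in these runs from -0.0681 to 0.0572, reversing from -0.02 without WT replicate 3 (0.0237) and without knockout replicate 3 (0.0572). Outside these ranges lay the FPKM values of Eln (-3.42) and Fbn1 (0.608), and Rnf40 with library size only (-0.0797). Genes higher besides Eln numbered 2 to 5 and lower 1 to 3 (2 lower with library size only, 2 higher at an adjusted p under 0.01).

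With a library left out, genes at an adjusted p under 0.05 numbered 694 to 3230 higher and 702 to 3280 lower, against 2195 and 2218. At the study's thresholds they numbered 0 to 300 and 1 to 491, against 201 and 279. The 0 came without WT replicate 3, where 424 genes were higher at an unadjusted p under 0.05 with the study's other thresholds. The lowest counts came without a WT library and the highest without knockout replicate 3. DESeq2 gave 417 and 565, the exact test 409 and 566, and an adjusted p under 0.05 at those thresholds 418 and 586.

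For microfibril genes the ranges were 2 to 6 higher and 4 to 11 lower, for lysyl oxidase and copper genes 2 to 5 and 0 to 2, and for receptor and elastolytic genes 0 to 5 and 0 to 1. Library size only gave 3 microfibril genes higher, 1 lysyl oxidase gene lower, and 2 receptor genes higher and 1 lower. Without a count filter 3 microfibril genes were higher, and DESeq2 called 1 receptor gene lower. The causes were not tested.

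Same-numbered libraries did not deviate together (correlations -0.0656, 0.0366 and 0.0109). Because the WT spread may be wholly technical, these values can neither show nor exclude pairs. The main fit does not take the numbers as pairs, and the replicate block was run as an alternative. With the replicate block in edgeR's test, 1385 genes were higher, 0 and 0 passed the study's thresholds (443 higher and 697 lower at an unadjusted p under 0.05 with its other thresholds), and 2 microfibril genes and 1 receptor gene were higher. Depth did not limit the 10 genes, whose lowest count was 157. Adamtsl2 lay under the floor in each knockout library (2, 0 and 0 counts), as did Emilin3 in knockout replicate 3 (1 count).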
